A study of Mus musculus with 3 samples.

Results

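Mir670hg and Prdm8 are 2 of the 32285 genes counted in single nuclei sorted from the lateral habenula of mice, and they were chosen by their summed levels in neuronal nuclei, which stood higher in the library from mothers than in those from virgin females and virgin males. Mir670hg is a long noncoding RNA gene and Prdm8 encodes a zinc finger protein. The lateral habenula was dissected and nuclei carrying KASH-GFP, a GFP held at the nuclear envelope, were sorted; the labels name the cells by BNST (bed nucleus of the stria terminalis) and LHb (lateral habenula). There were 3 groups, namely sexually experienced females that were mothers, virgin females and virgin males, and each was a pool of 3 mice run on its own lane of a 10x Genomics droplet device as 1 library. The labels used here do not give strain, age, time after birth of the litter, or how GFP reached the cells.

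With 1 library per group there is no replicate of any condition, so nothing below is a test between conditions. Levels are summed UMIs (unique molecular identifiers, each marking 1 captured RNA molecule) per 1000000 UMIs of the same nuclei, abbreviated CPM. Intervals are 95% exact intervals that cover counting error only, treating UMIs as independent, and say nothing about differences between mice.

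Prdm8 belongs to a family of proteins with a PR domain and zinc fingers. It is known as a transcriptional repressor in developing neurons, where it works with the basic helix-loop-helix protein Bhlhe22 and represses the cadherin gene Cdh11. Mir670hg is known mainly as the host transcript of the microRNAs miR-670 and miR-129-2, short RNAs that pair with target transcripts through a stretch near their 5′ end called the seed. The lateral habenula is a small epithalamic nucleus of mostly glutamatergic neurons, studied in relation to aversion and mood.

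In the GENCODE M21 annotation of GRCm38, Mir670hg (ENSMUSG00000075020.6) covers chr2:94160636-94264918 on the minus strand, a span of 104283 bp with 7 lincRNA transcripts. The miR-670 hairpin lies in an intron of 4 of these transcripts, partly in an exon of 1 and outside 2. The miR-129-2 hairpin lies in an intron of 3 and outside 4. The mature microRNAs of this host gene are printed because they are what the gene is named for, with the seed (bases 2 to 8) in capitals, 5′ to 3′, from RefSeq on GRCm38.p6, all on the minus strand of chromosome 2:
mmu-miR-670-5p: aUCCCUGAguguauguggugaa
mmu-miR-670-3p: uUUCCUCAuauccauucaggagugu
mmu-miR-129-5p: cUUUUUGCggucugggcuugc
mmu-miR-129-2-3p: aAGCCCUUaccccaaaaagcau
They lie at chr2:94261358-94261379, chr2:94261316-94261340, chr2:94241419-94241439 and chr2:94241376-94241397, in that order. The 4 seeds differ from each other, and no other of the 1679 mature names in the RefSeq table shares any of them. Mature microRNAs outside those names were not searched. The mature miR-129-5p is also made from a second gene. The libraries capture polyadenylated RNA at its 3′ end, so the values below are those of the host gene and no value is given for any microRNA. Whether reads in introns were counted is not stated, so UMIs of Mir670hg may come from spliced or unspliced RNA.

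Prdm8 (ENSMUSG00000035456.9) covers chr5:98167198-98188991 on the plus strand, 21794 bp with 2 coding transcripts of 5 and 4 exons. An antisense gene, A730035I17Rik, lies wholly inside it, with 1411 of its 2393 exon bases over exons of Prdm8. The use of strand in counting is not stated, so reads of the pair cannot be told apart. A730035I17Rik had 0 UMIs in the mothers, 0 in the virgin females and 1 in the virgin males.

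Because both genes stood higher in the same library, the sequence before their start sites was searched for CATATG, an E-box of the kind that basic helix-loop-helix proteins such as the partners of Prdm8 bind; it is its own reverse complement, so both strands read the same. In RefSeq windows from 250 bases before to 50 after each start site, it was present in 4 of 4 windows of Mir670hg and 0 of 1 of Prdm8, against 1286 of all 32851 windows (3.91%). The stretch of Mir670hg that holds it, chr2:94265101-94265160 on the minus strand of GRCm38.p6, is shown 5′ to 3′ with the E-box in capitals, its first base 30 bases before a start site:
Mir670hg: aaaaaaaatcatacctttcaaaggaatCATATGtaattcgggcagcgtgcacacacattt
That start site is from RefSeq, and the whole stretch lies outside the GENCODE span of Mir670hg given above, which ends at 94264918. The 4 windows are of the same gene and may overlap, so nothing is read from 4 of 4 beside 3.91%. A match of letters is not a bound site.

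The libraries held 202, 196 and 205 nuclei for mothers, virgin females and virgin males, of which 201, 187 and 204 carried the deposited label of neurons and were used. Their neuronal UMIs summed to 2691639, 2718356 and 2122919, so 3 UMIs, taken as the floor of detection, correspond to 1.11, 1.1 and 1.41 CPM. The median depth was 11898, 13181 and 9414 UMIs per nucleus, lowest in the virgin males, and no cell barcode was shared between libraries. Of the lateral habenula markers, Pou4f1 gave 0 UMIs in deposited clusters 0, 2 and 3 and 49 and 6 in clusters 1 and 4. The floor of 3 UMIs corresponds to 1.39, 2.2 and 2.03 CPM in clusters 0, 2 and 3. A sum of 6 thalamic markers reached 7090, 8270 and 10600 CPM in clusters 0, 2 and 3, against 2050 and 1450 CPM in clusters 1 and 4. The sum of 6 lateral habenula markers, Pou4f1 among them, was 899, 1120 and 1170 CPM in clusters 0, 2 and 3 and 1890 and 1760 in clusters 1 and 4. Single markers did not all follow this order, since Gpr151 stood at 11.6 CPM in cluster 0 and 1.29 in cluster 4, and clusters are called by number here. By library, the same sum was 1090 CPM in the mothers, 1360 in the virgin females and 1530 in the virgin males; with every cluster given the same weight in each library, the log2 ratios of mothers over virgin females and over virgin males were 1.31 and 1.22 for Mir670hg and 1.45 and 1.65 for Prdm8.

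Mir670hg gave 343 UMIs in the mothers, 120 in the virgin females and 103 in the virgin males. This was 127 CPM (interval 114 to 142) in the mothers, while the virgin females stood at 44.1 (36.6 to 52.8) and the virgin males at 48.5 (39.6 to 58.8). The mothers' interval lies above both virgin intervals, which overlap each other. The level in mothers was 2.89 times that in the virgin females (2.34 to 3.58) and 2.63 times that in the virgin males (2.1 to 3.31). Virgin males stood at 1.1 times virgin females (0.836 to 1.44).

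Prdm8 gave 157, 62 and 44 UMIs in mothers, virgin females and virgin males. These are 58.3 CPM (49.6 to 68.2), 22.8 (17.5 to 29.2) and 20.7 (15.1 to 27.8). Here too the mothers stood apart from both virgin libraries in counting error, and the virgin libraries overlapped. The ratio was 2.56 (1.89 to 3.49) over virgin females and 2.81 (2 to 4.03) over virgin males, and 0.909 (0.603 to 1.36) for virgin males over virgin females.

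These differences are what the genes were chosen for and are given as a description. Among 9891 genes with at least 50 UMIs in each pair of libraries, 10 (0.101%) were at least 2-fold higher in mothers than in both virgin libraries and 7 (0.0708%) at least 2-fold lower; the choice used this contrast, so nothing is read from these shares. Against virgin females alone 57 of 10388 genes (0.549%) were at least 2-fold higher, and against virgin males alone 67 of 9990 (0.671%). Ranked by the smaller of the 2 log2 ratios, Mir670hg was 4th at 1.39 and Prdm8 5th at 1.35. The genes just inside the 2-fold limit were Fgf10 at 1.21, Mpzl3 at 1.17 and 4933423P22Rik at 1.15, and those just outside were Atpaf2 at 1.00, Dnajc12 at 0.99 and Zbtb16 at 0.99. Both comparisons share the mothers' library.

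Within the 5 deposited clusters the genes differed in pattern. Prdm8 was higher in mothers than in both virgin libraries in all 5 clusters. In cluster 0 it stood at 49.7 CPM in mothers, 26.3 in the virgin females and 14.4 in the virgin males. In cluster 1, the cluster with most Pou4f1, it stood at 85.6, 23.6 and 34.7 CPM in the same order. Clusters 2, 3 and 4 had 44.9, 68.3 and 49.5 CPM in mothers, 15.3, 23 and 20.9 in the virgin females, and 10.7, 24.5 and 11 in the virgin males. The lowest cluster of the mothers, 44.9 CPM, thus lay above the highest of the 10 virgin sums, 34.7 CPM. The share of all genes that part in this way is not given, and Prdm8 was chosen for high levels in mothers, so nothing is read from it. Ratios over virgin females ran from 1.89 (1.08 to 3.37) in cluster 0 to 3.63 (2.06 to 6.58) in cluster 1. In cluster 4, where virgin females had 4 UMIs, the interval included 1 (2.36, 0.792 to 9.51). Ratios over virgin males ran from 2.47 (1.34 to 4.74) in cluster 1 to 4.49 (1.09 to 39.7) in cluster 4, where virgin males had 2 UMIs. Of 4607 genes with at least 20 UMIs in each pair of libraries in every cluster, 43 (0.933%) were higher in mothers than in both virgin libraries in all 5 clusters. The choice of Prdm8 used the library totals that these clusters make up, and in cluster 4 Prdm8 met this minimum through the 20 UMIs of the mothers alone, so nothing is read from this share.

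**Figure D1:**
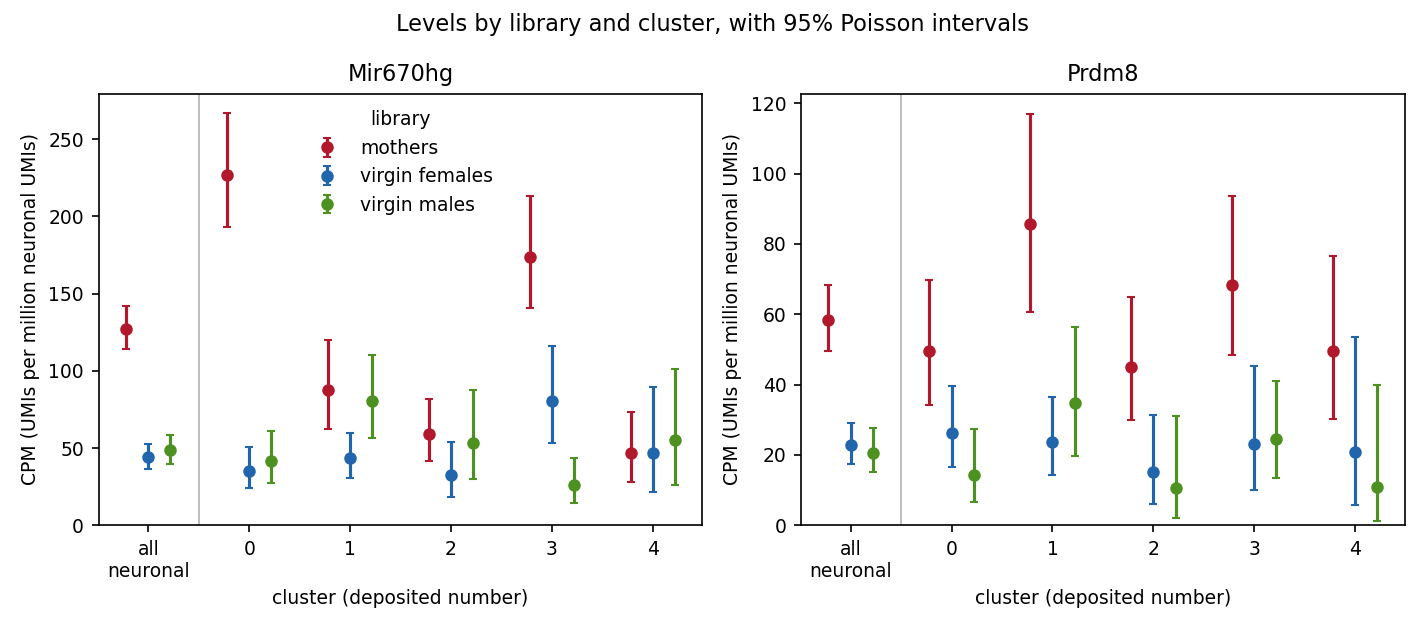
Level of Mir670hg and Prdm8 in CPM for each library in each of the 5 deposited clusters, with 95% exact Poisson intervals for counting error. Mir670hg in mothers stands out in clusters 0 (227 CPM) and 3 (174 CPM), while Prdm8 in mothers is the highest of the 3 libraries in every cluster.

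Mir670hg was higher in mothers than in the virgin females in 4 of 5 clusters and than in the virgin males in 4 of 5, but the size of the difference changed from cluster to cluster. In cluster 0 it reached 227 CPM (193 to 267) in mothers against 35.5 (24.1 to 50.4) in the virgin females and 41.5 (27.1 to 60.8) in the virgin males. The ratios there were 6.41 (4.33 to 9.76) and 5.48 (3.6 to 8.66). In cluster 3 it stood at 174 CPM (141 to 213) in mothers, 80.6 (53.5 to 116) in the virgin females and 26.2 (14.7 to 43.3) in the virgin males, ratios of 2.16 (1.41 to 3.42) and 6.64 (3.83 to 12.3). The virgin libraries also stood apart from each other in this cluster, with virgin males at 0.326 times virgin females (0.162 to 0.631). A single nucleus held 14 of the 28 UMIs of the virgin females in cluster 3, and without the richest nucleus of each library the levels were 161, 43.2 and 19.6 CPM.

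In clusters 1, 2 and 4 the mothers and the virgin males were close. Cluster 1 had 87.8 CPM in mothers, 43.6 in the virgin females and 80.2 in the virgin males. A single nucleus held 18 of the 39 UMIs of mothers there, and without the richest nucleus of each library the levels were 49.1, 39 and 60.7 CPM, the virgin males then being highest. Cluster 2 had 59.4, 32.7 and 53.3 CPM, and cluster 4 had 47, 47.1 and 55.1 CPM. The ratios over virgin males were 1.1 (0.681 to 1.77), 1.11 (0.597 to 2.19) and 0.854 (0.378 to 2.06) in clusters 1, 2 and 4. Summed over these 3 clusters the level was 64.6 CPM in mothers, 40.7 in the virgin females and 67.1 in the virgin males. Clusters 0 and 3 held 72.3% of the Mir670hg UMIs of mothers, 49.2% of the virgin females and 39.8% of the virgin males, with 40.8%, 41.7% and 50.5% of the nuclei. The level in clusters 0 and 3 together was 203, 48.3 and 34.2 CPM. The corresponding share of Prdm8 UMIs was 45.2%, 50% and 52.3%. Per cluster, the share of genes at least 2-fold higher in mothers than in both virgin libraries was 0.637%, 1.04%, 1.29%, 1.13% and 1.42% for clusters 0 to 4.

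The deposited subtype labels divided cluster 0 further. The 8 nuclei of mothers labelled lhb_1 there held 87 of the 151 UMIs, a level of 552 CPM (442 to 681), against 50.5 in 9 nuclei of the virgin females and 54.5 in 4 of the virgin males. Of those 87 UMIs 79 lay in 3 nuclei, and the other 5 nuclei stood at 84.7 CPM (36.6 to 167), a split made after seeing the data. The nuclei labelled lhb_3 stood at 126 CPM (97.4 to 161) in 39 nuclei of mothers, 29.8 (18.2 to 46.1) in 50 of the virgin females and 40.2 (25.5 to 60.4) in 60 of the virgin males. Under the other labelling, Mir670hg in nuclei labelled LHb1 stood at 173 CPM in mothers, 42.2 in the virgin females and 39.9 in the virgin males, and in those labelled LHb2 at 78.5, 50.1 and 52.6. In the label LHb4 the order was different, with 38.3, 36.6 and 87 CPM from 7, 11 and 20 UMIs. Prdm8 stood at 52.8, 22.1 and 17.6 CPM in LHb1 and at 69.8, 21.7 and 20.4 in LHb2. In LHb4, where it had 7, 9 and 9 UMIs, it stood at 38.3, 30 and 39.2 CPM, and mothers were not above virgin males.

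The 2 genes also differed in how their UMIs were spread over nuclei. Mir670hg was found in 82 nuclei of mothers, 54 of the virgin females and 51 of the virgin males, which is 40.8% (33.9 to 47.9), 28.9% (22.5 to 35.9) and 25% (19.2 to 31.5). Nuclei with Mir670hg held 4.18 UMIs each on average in mothers, 2.22 in the virgin females and 2.02 in the virgin males. There were 33, 27 and 34 nuclei with exactly 1 UMI, so the libraries were alike at the low end, and 21, 5 and 5 nuclei with at least 5. The richest nuclei of mothers had 32 and 31 UMIs, both in cluster 0 and labelled lhb_1, against 14 in the virgin females and 10 in the virgin males. Of the 15 richest nuclei, 13 came from mothers, 1 from virgin females and 1 from virgin males. The variance over the mean of counts thinned to 5000 UMIs per nucleus was 3.63 in mothers, 1.41 in the virgin females and 1.68 in the virgin males, where independent UMIs at an equal level would give 1. Where this value is above 1, as it also was for Prdm8 in mothers, the intervals of levels and ratios are too narrow, most so for Mir670hg in mothers.

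**Figure D2:**
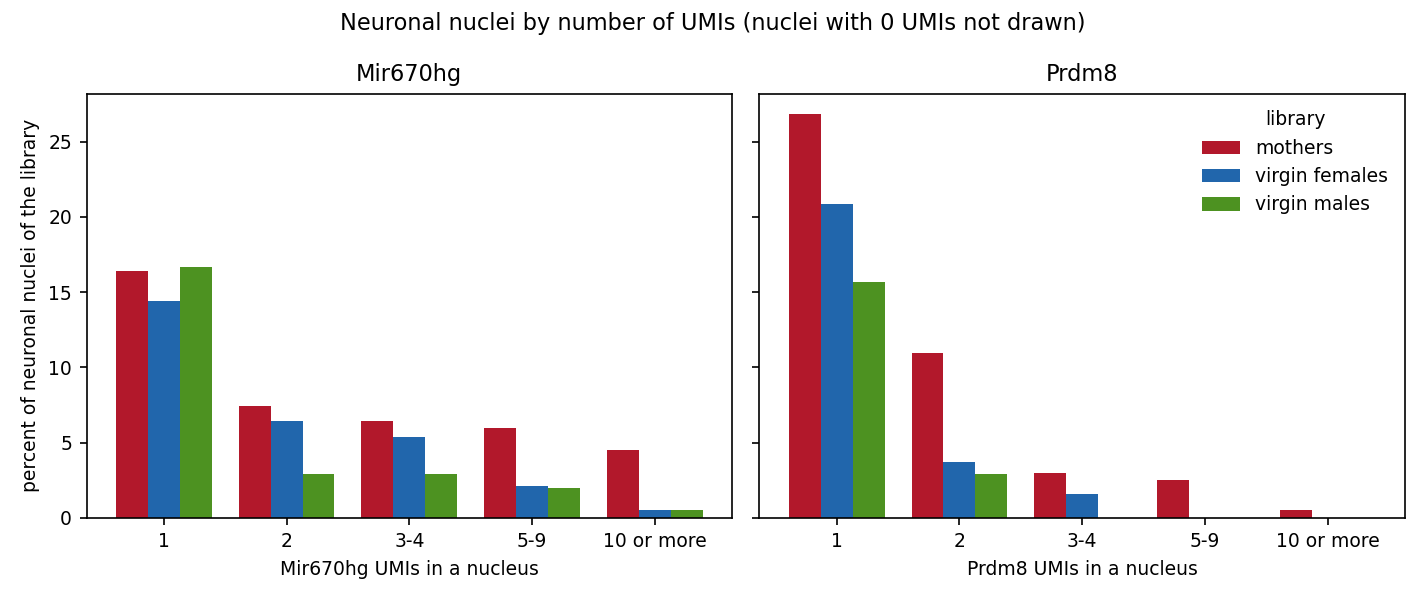
Percent of the neuronal nuclei of each library by class of UMIs of Mir670hg and of Prdm8, with nuclei that hold no UMI not drawn. Counted as nuclei, the libraries are alike at 1 UMI of Mir670hg (33, 27 and 34) and part at 5 UMIs and more (21, 5 and 5). Prdm8 differs from 1 UMI on (54, 39 and 32 nuclei).

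Prdm8 was found in 88, 49 and 38 nuclei, or 43.8% (36.8 to 50.9) of mothers, 26.2% (20.1 to 33.1) of the virgin females and 18.6% (13.5 to 24.7) of the virgin males. Most of these nuclei held a single UMI, 54, 39 and 32 of them, and 22, 7 and 6 held 2. Nuclei with at least 3 UMIs numbered 12 in mothers, 3 in the virgin females, and 0 in the virgin males. The richest nucleus of mothers had 11 UMIs. The variance over the mean of thinned counts was 1.49, 0.949 and 1.11, nearer to 1 than for Mir670hg in mothers.

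Shares of nuclei move with depth, which was lowest in the virgin males. With every nucleus thinned to 5000 UMIs, leaving out 14, 15 and 30 shallower nuclei, Mir670hg was found in 29.9% (23.5 to 37.1), 15.7% (10.6 to 22) and 16.7% (11.5 to 23.1) of nuclei. Prdm8 was found in 24.6% (18.6 to 31.4), 13.4% (8.67 to 19.4) and 9.77% (5.8 to 15.2). The mothers had the highest share at equal depth for both genes. As a gauge of free RNA, the 11 nuclei not labelled as neurons, of median depth 4780 UMIs, held 3 UMIs of Mir670hg and 2 of Prdm8, each in 2 nuclei (18.2%, 2.28 to 51.8). These sums correspond to 38.8 CPM (8.01 to 114) for Mir670hg and 25.9 CPM (3.14 to 93.5) for Prdm8, intervals that hold the levels of both virgin libraries and, for Prdm8, that of the mothers too, while the interval of Mir670hg in mothers (114 to 142) begins where the non-neuronal one ends. Of these 11 nuclei 9 came from virgin females, 1 from mothers and 1 from virgin males, so they gauge free RNA poorly in the mothers' library.

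From nucleus to nucleus the 2 genes showed little relation, by shares within each library and by a correlation within library and cluster. In mothers 38 nuclei held both, 44 Mir670hg alone, 50 Prdm8 alone and 69 neither. Prdm8 was found in 46.3% of the nuclei of mothers with Mir670hg and in 42% of those without. The shares were 38.9% and 21.1% in the virgin females and 23.5% and 17% in the virgin males. Nuclei with Mir670hg were deeper, with a median of 15671 against 10755 UMIs in mothers and 17144.5 against 12007 in the virgin females. After thinning to 5000 UMIs the shares of nuclei with Prdm8 were 25% and 24.4% in mothers, 18.5% and 12.4% in the virgin females, and 10.3% and 9.66% in the virgin males. Only 14, 5 and 3 thinned nuclei held both genes. The Pearson correlation of the 2 genes over 592 nuclei, after subtracting the mean of each library and cluster, was -0.04. By library it was -0.10 in mothers, 0.11 in the virgin females, and -0.03 in the virgin males. Over 7497 genes, the 1st and 99th percentiles of the correlation with Mir670hg over all nuclei were -0.09 and 0.13. The 2 richest Mir670hg nuclei held 1 and 0 UMIs of Prdm8.

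**Figure D3:**
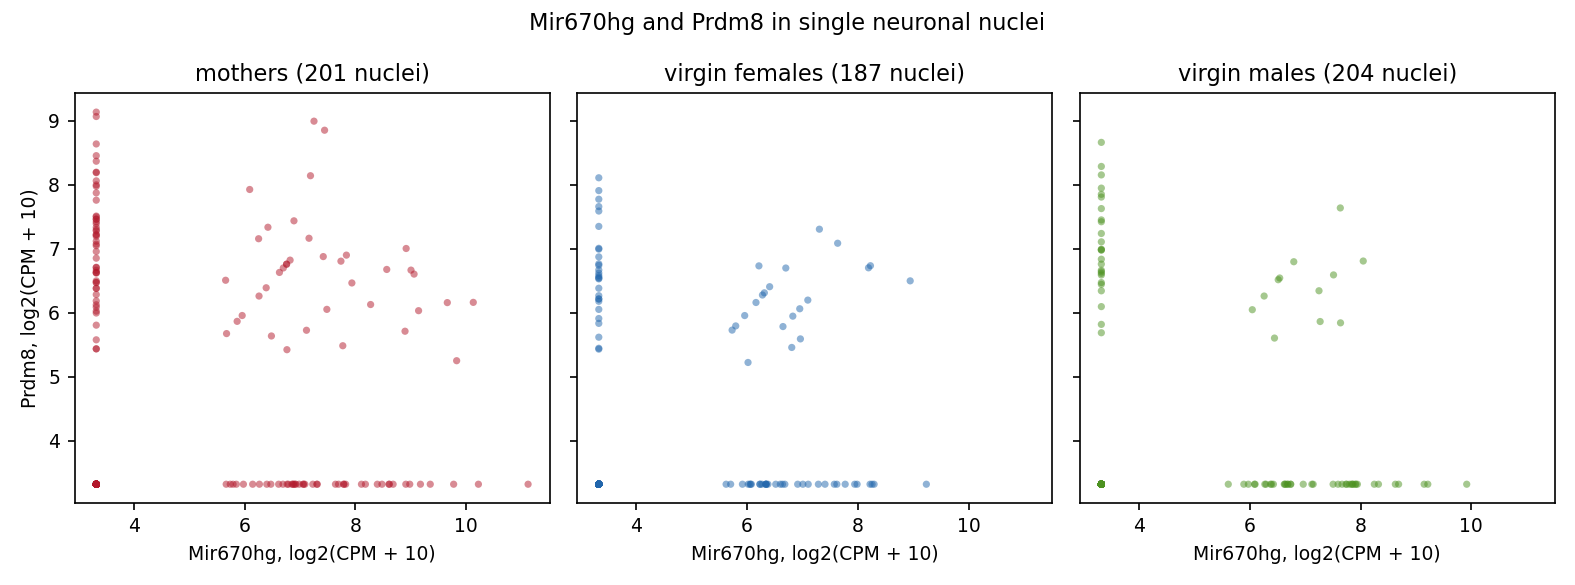
Mir670hg against Prdm8 in each neuronal nucleus, as log2(CPM + 10), in 1 panel per library. Of the 10 nuclei with most Mir670hg 9 came from mothers, and these held from 0 to 2 UMIs of Prdm8. Nuclei with both genes are 38 of 201 in mothers, 21 of 187 in the virgin females, and 12 of 204 in the virgin males.

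Across nuclei, and after the same subtraction, the genes most like Mir670hg among 7497 were Pitpnc1, a phosphatidylinositol transfer protein, with r of 0.26, the phosphodiesterase Pde10a with 0.24, the activity-regulated nuclear receptor Nr4a1 with 0.20, Dock4 with 0.19 and the elongation factor Ell2 with 0.18. The 99th percentile over all genes was 0.13 and the median 0.01. For Pitpnc1 the value was 0.33 in mothers, 0.14 in the virgin females and 0.26 in the virgin males, and 0.25 without the 5 richest nuclei. Its own level was 398 CPM in mothers, 299 in the virgin females, and 282 in the virgin males. For Pde10a the value was 0.34, 0.27 and 0.10. With log depth, Mir670hg itself had r of 0.17, Pitpnc1 0.17 and Pde10a 0.28. The genes most like Prdm8 were the sialyltransferase St8sia5 with 0.20, the perineuronal net link protein Hapln4 with 0.20, Igdcc4 with 0.18, the lipase Pnpla8 with 0.17 and Wdr76 with 0.16, against a 99th percentile of 0.12. The lists depend on the measure. With residuals of a Poisson model in place of logged values, Pitpnc1 with 0.33 and Pde10a with 0.27 again led for Mir670hg, but the other named genes changed. For Prdm8 Golga3 then led with 0.29, and of the genes named above only Hapln4, with 0.19, stayed among the top 5. These counts are sparse, and the values are a description over nuclei that share libraries.

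Over the 15 sums of library and cluster, the genes most like Mir670hg were Pigl and Ccdc186 with r of 0.84, Tacc2 with 0.83, Hgs with 0.68 and Rnf214 with 0.67. Tacc2 stood at 74.7 CPM in mothers, 44.5 in the virgin females and 43.8 in the virgin males, and Pigl at 28.6, 15.1 and 16. The genes most like Prdm8 were C9orf72 with 0.79, Trappc9 with 0.78, Ankzf1 and Gm47827 with 0.76 and the translation initiation factor Eif3a with 0.75. C9orf72 stood at 29.4, 19.1 and 15.5 CPM. The 99th percentile over 7476 genes was 0.49 for Mir670hg and 0.61 for Prdm8. Because the members were chosen for high levels in mothers, these lists favour other genes high in mothers, so nothing is read from those levels. The 2 members had r of 0.60 with each other over these sums, a value that the choice of both for the same library helps to set.

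Of 5 listed genes linked to Prdm8, only 2, Cdh11 and Epm2a, had enough UMIs. Neither was 1.5-fold higher or lower in mothers than in both virgin libraries, where 1.16% of all genes tested were higher and 0.849% lower. Nothing is read from 2 genes. Bhlhe22, the basic helix-loop-helix partner of Prdm8, had 3, 6 and 8 UMIs in mothers, virgin females and virgin males, at or little above the floor, and Bhlhe23 had none. Cdh11, the cadherin gene that Prdm8 is known to repress, stood at 294, 288 and 286 CPM, and its ratios of 1.02 (0.923 to 1.13) and 1.03 (0.925 to 1.15) included 1. Epm2a, which encodes the phosphatase laforin, stood at 39.8, 40.8 and 35.3 CPM. Nhlrc1, which encodes the ubiquitin ligase malin, had 8, 12 and 6 UMIs. The 4 measured of 6 histone H3 lysine 9 methyltransferases, the class of enzyme that PR-domain proteins resemble or recruit, had median log2 ratios of 0.22 over virgin females and 0.20 over virgin males, where all genes tested had -0.00 and 0.02. Ehmt2 had the highest ratios of the 4, at 42.4, 30.2 and 30.6 CPM, with ratios of 1.4 (1.05 to 1.89) and 1.38 (1.01 to 1.91). For Ehmt1, Suv39h1 and Setdb1 the intervals of both ratios included 1, and Setdb1 stood at 0.963 times virgin males. None of the 4 was 1.5-fold higher in mothers than in both virgin libraries.

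Of 15 genes of the PRDM family, 6 had enough UMIs. Only Prdm8, chosen for this contrast, was at least 1.5-fold higher in mothers than in both virgin libraries, where 115 of 9891 genes (1.16%) were. Its place was set by the choice, so nothing is read from this count. The median log2 ratio of the 6, Prdm8 among them, was 0.18 over virgin females and -0.02 over virgin males. Prdm2, a histone methyltransferase of the family, was lower in mothers, at 60.2 CPM against 75 and 78.2, with ratios of 0.802 (0.648 to 0.991) and 0.77 (0.616 to 0.962). Prdm10 stood at 59.1, 52.2 and 49 CPM and Prdm15 at 34.6, 28.7 and 31.6.

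Of 12 microRNA host genes, 8 had enough UMIs. Only Mir670hg, chosen for this contrast, was at least 1.5-fold higher in mothers than in both virgin libraries, where 1.16% of all genes tested were. Its place too was set by the choice, so nothing is read from this count. The median log2 ratio of the 8, Mir670hg among them, was 0.06 over virgin females and 0.09 over virgin males. Mir22hg, the host of miR-22, was 1.76 times virgin females (1.07 to 2.94) at 17.5 against 9.93 CPM, but 1.2 times virgin males (0.744 to 1.95). The hosts of the neuronal microRNA miR-124 were level, Mir124a-1hg at 467, 454 and 431 CPM and Mir124-2hg at 208, 205 and 207. Mir100hg stood at 604, 573 and 511 CPM and Mir99ahg at 325, 344 and 402. None of the 10 genes for microRNA processing and Argonaute proteins was 1.5-fold higher or lower in mothers than in both virgin libraries, where 1.16% of all genes tested were higher and 0.849% lower. Dicer1, the enzyme that cuts microRNA precursors, stood at 63.9, 75.4 and 94.7 CPM, 0.675 times virgin males (0.547 to 0.831). Of 12 other long noncoding RNAs of brain, 10 had enough UMIs, and none was 1.5-fold higher or lower in mothers than in both virgin libraries. With shares of 1.16% higher and 0.849% lower over all genes tested, nothing is read from none of 10. Meg3 stood at 0.966 and 0.977 times the virgin females and virgin males, and Rmst at 0.8 and 0.727.

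**Figure D4:**
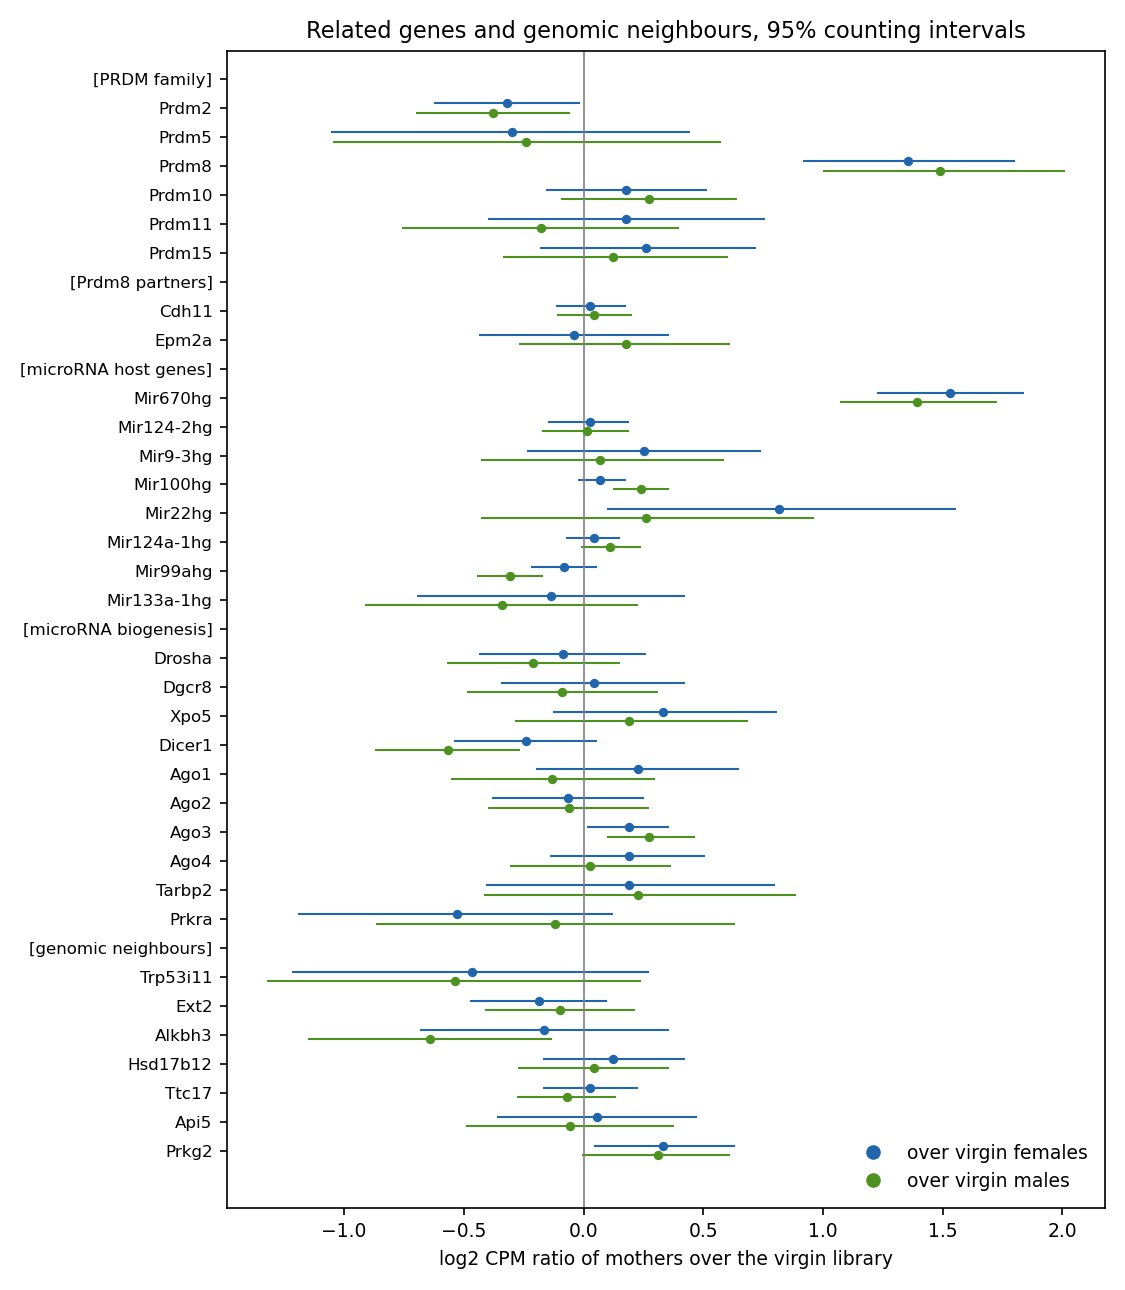
Log2 ratio of the level in mothers over each virgin library, with 95% conditional binomial intervals, for PRDM genes, partners of Prdm8, microRNA host genes, microRNA processing genes and genes within 1 Mb of either member. Mir670hg (1.53 and 1.39) and Prdm8 (1.35 and 1.49) were chosen for this contrast. Their points are higher than those of the other genes shown, which mostly lie near 0. As a fold, Mir22hg over virgin females stood at 1.76 (1.07 to 2.94), an interval that overlaps theirs.

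The genes beside Mir670hg and Prdm8 on their chromosomes had ratios on both sides of 1. Of 28 genes within 1 Mb, 7 had enough UMIs and none was 1.5-fold higher in mothers than in either virgin library, where 398 of 10388 genes (3.83%) were against virgin females and 425 of 9990 (4.25%) against virgin males. Hsd17b12, whose gene lies 2672 bp past the 3′ end of Mir670hg on the same strand, had ratios of 1.09 (0.889 to 1.34) and 1.03 (0.828 to 1.28). Ttc17, 35849 bp upstream, stood at 154, 151 and 162 CPM, ratios of 1.02 and 0.954. Alkbh3, a DNA and RNA demethylase, stood at 22.7, 25.4 and 35.3 CPM, 0.893 times virgin females (0.622 to 1.28) and 0.641 times virgin males (0.45 to 0.912). Trp53i11 stood at 10.4, 14.3 and 15.1 CPM, with ratios of 0.725 (0.43 to 1.21) and 0.69 (0.4 to 1.18). Prkg2, a cGMP-dependent protein kinase gene within 1 Mb of Prdm8, stood at 83.2, 65.8 and 67.4 CPM, with ratios of 1.26 (1.03 to 1.55) and 1.24 (0.997 to 1.53). The growth factor gene Fgf5 and Antxr2, the nearest coding genes to Prdm8, had 3, 4 and 2 and 5, 8 and 3 UMIs, too few for a ratio.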

How the data were processed

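Nuclei of 3 libraries, each a pool of 3 mice, were analysed, with groups taken from the sample labels. The authors deposited a table of UMI counts per gene and nucleus and a table with each nucleus's library, total count, percent of mitochondrial UMIs, cluster and subtype labels, per the file headers. Cell Ranger 5.0.1 and GRCm38 (mm10) are named in the submitters' processing notes; the annotation, intron counting, strand and nucleus filters were not stated there. The count table names no library, so nuclei were joined to the labels by total UMIs and genes with a UMI, a pair of values unique to each of 603 nuclei; the deposited percent of mitochondrial UMIs then matched the counts with a largest difference of 0. Deposited clusters and labels were used as they stand, no doublet caller was run, and an alternative dropped the deepest 5% of nuclei. Neuronal counts were added up by library and by cluster (Python 3.11.15, numpy 2.4.6, scipy 1.17.1, pandas 2.3.3), with exact Poisson intervals for CPM, Clopper-Pearson intervals for shares and conditional binomial intervals for ratios, at 95%. TMM scaling by edgeR 4.0.16 in R 4.3.3 was an alternative. Genes with at least 50 UMIs in each pair of libraries entered the counts past a fold. Functions were tested on simulated data.

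Named genes are Mir670hg and Prdm8, listed genes 1.5-fold apart from both virgin libraries, partners, host genes and neighbours of at least 50 UMIs, and for each member the 5 genes of highest r over nuclei (log of UMIs per 10000, genes found in at least 20% of nuclei) and over the 15 sums (log2(CPM + 10), at least 150 UMIs). Other genes were named after their values were seen. The members and lists were chosen with earlier results of these data known. Sequences are from RefSeq tables.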

Additional observations from a re-analysis of the deposited data

How the results depend on the processing

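The ratio of Prdm8 stayed between 1.32 and 1.53 on the log2 scale over virgin females and between 1.36 and 1.67 over virgin males under 15 alternatives each, 4 of them chosen after seeing the data. The Mir670hg ratio over virgin females kept its direction in all 15, and that over virgin males in all but the removal of clusters 0 and 3. Without cluster 0 they were 0.97 over virgin females and 0.88 over virgin males, and without clusters 0 and 3 they were 0.66 and -0.05, with virgin males over virgin females at 0.72; these removals were chosen after seeing the data, and they leave out the clusters where the difference is largest. With the same cluster mix in each library the Mir670hg ratios were 1.31 and 1.22, and those of Prdm8 1.45 and 1.65.

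Thinning to 5000 UMIs lowered the share of nuclei with Mir670hg to 29.9% in mothers, 15.7% in the virgin females and 16.7% in the virgin males, and with Prdm8 to 24.6%, 13.4% and 9.77%. At 3000 UMIs the shares were 19.7%, 13.3% and 11.3% for Mir670hg and 15.5%, 10.6% and 6.15% for Prdm8. Thinning removes UMIs by construction.

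With a minimum of 20 UMIs, 286 genes were at least 1.5-fold higher in mothers than in both virgin libraries, 281 lower, 58 at least 2-fold higher and 51 lower. With no minimum these counts were 2505, 1594, 1758 and 1020, against 115, 84, 10 and 7. The added genes are those with few UMIs. No paired analysis was possible because each group is 1 library. For the same reason, group, lane and pool of mice cannot be told apart.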

Other observations

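Other genes of the fixed lists were uneven in the virgin males. Prdm16, a PRDM gene known from neural stem cells and brown fat, had 21 UMIs in 9 neuronal nuclei of virgin males, 17 of them in cluster 1, against 3 in mothers and 2 in virgin females. The long noncoding RNA Neat1, a scaffold of nuclear paraspeckles, had 30 UMIs in virgin males, 23 of them in cluster 1 and 17 in 3 nuclei, against 5 in mothers and 13 in virgin females. Mecom, a further PRDM gene, had 10 UMIs in 5 nuclei of virgin males, 4 in virgin females and 0 in mothers. The summed ependymal and choroid markers in the neuronal nuclei were 351 CPM in virgin males, 1.1 in virgin females and 2.23 in mothers, and their part in these values was not tested.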
